A study of Mus musculus with 26 samples.

Results

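DNA replication and mitosis genes of tumour-associated macrophages were followed in polysome-associated and total mRNA of the same mouse mammary tumours. The group holds 43 genes given by name, 30 that act in DNA replication and 13 that act in mitosis and cell cycle progression, out of 19549 gene rows. A gene was taken only where a row of the count tables carries exactly its name, which left 38 genes, 27 for replication and 11 for mitosis. The other 5 (Rfc4, Gins2, Lig1, Ccna2 and Cdc20) appear only in rows that the authors joined with a neighbouring gene, and their reads cannot be divided.

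Female FVB mice of 5 to 7 weeks had received PyMT mammary tumour cells in an inguinal mammary gland. All animals carried such a tumour, so no tumour-free macrophages are part of the comparison. CD11b+ F4/80+ Ly6G- cells were sorted from 13 tumours in cycloheximide, which holds ribosomes on mRNA. From each tumour, mRNA with at least 3 ribosomes gave a polysome library, and about 10 percent of the cells gave a total mRNA library, both made by SmartSeq2. Large tumours (n = 5) weighed 1504 to 2245 mg and small tumours (n = 8) weighed 467 to 841.8 mg, with the division at 1000 mg, in the gap between them. The labels place large replicates 3 to 5 and small replicates 6 to 8 in experimental batch 2, and large replicates 1 and 2 and small replicates 1 to 5 in experimental batch 1.

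Polysome libraries held 7034173 to 28257436 counts and total mRNA libraries 18018519 to 55609113. The macrophage genes used for the sort were present, with Adgre1 (F4/80) at 41.5 to 811 CPM (the share of a library's counts, TMM-scaled and set to a fixed library total) in polysome and 119 to 1052 CPM in total mRNA, while Ly6g was at or below 0.0884 CPM in every library. Small replicate 7 stood apart from the other 12 tumours. Its summed level of 7 macrophage markers was the lowest, at 1333 CPM in polysome and 6125 CPM in total mRNA, against at least 6771 and 13713 CPM in the others. Its summed level of 12 mammary epithelial markers was the highest, at 961 CPM in polysome and 4043 CPM in total mRNA, against at most 408 and 761 CPM. Among them, Krt8 (2354 CPM) and Krt18 (1515 CPM) were highest there in total mRNA. Epcam was highest there in polysome mRNA (17.1 CPM, against at most 6.51) but not in total mRNA (5.65 CPM, against at most 12.1). The 10 fibroblast markers were highest there too, with 2569 CPM in polysome and 3337 CPM in total mRNA of this tumour, against at most 650 and 2189 CPM. Over all libraries the summed markers of neutrophils reached at most 63.9 CPM, of T and NK cells 29.1, of B cells 88.2, of endothelium 24.8 and of dendritic cells 35.2. Counts are also given without small replicate 7, and the part of other cell types in any result was not tested. In bulk libraries such as these, fewer cycling cells and less mRNA of these genes per cell cannot be told apart.

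A dividing cell copies its genome in S phase and separates the copies in mitosis. Origins are licensed by ORC, CDC6 and CDT1, which load the MCM helicase. CDC45 and the GINS complex then join MCM, RPA covers the unwound strand, and primase and the polymerases copy it with the sliding clamp PCNA, which the RFC complex loads. Mitosis is driven by CDK1 with B-type cyclins and by the Aurora and Polo kinases. Transcription of both sets follows the cell cycle, replication genes through E2F factors and many mitosis genes through CHR and CCAAT elements. Macrophages are mostly seen as non-dividing cells, but tissue and tumour macrophages can proliferate in place.

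The promoters below, 1 pair for each branch, show the letters by which these genes are usually grouped. They are RefSeq windows (GRCm38.p6) of 150 bases that end just before the annotated start, 5′ to 3′ on the gene's strand. Capitals mark the letters TTTCCCGC, TTTGGCGC or TTTGGCGG for E2F, TTTGAA for CHR and CCAAT, each searched on both strands and with overlaps allowed.
Mcm6 (chr1:128359706-128359855, minus strand): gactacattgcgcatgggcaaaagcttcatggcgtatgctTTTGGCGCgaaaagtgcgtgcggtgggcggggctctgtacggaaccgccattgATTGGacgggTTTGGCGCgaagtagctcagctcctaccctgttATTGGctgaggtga
Mcm5 (chr8:75109359-75109508, plus strand): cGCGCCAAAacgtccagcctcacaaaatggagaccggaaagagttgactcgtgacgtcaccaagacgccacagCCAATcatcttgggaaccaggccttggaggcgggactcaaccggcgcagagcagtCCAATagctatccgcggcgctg
Cdk1 (chr10:69352913-69353062, minus strand): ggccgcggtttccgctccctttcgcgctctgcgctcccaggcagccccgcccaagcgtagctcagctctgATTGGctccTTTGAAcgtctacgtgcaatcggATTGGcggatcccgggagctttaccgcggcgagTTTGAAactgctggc
Top2a (chr11:99024190-99024339, minus strand): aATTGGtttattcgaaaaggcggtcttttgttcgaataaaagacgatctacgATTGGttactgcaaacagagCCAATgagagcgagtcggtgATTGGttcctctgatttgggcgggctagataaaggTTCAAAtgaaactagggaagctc

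Mcm6 and Mcm5 held the E2F letters in the stretch shown and Cdk1 and Top2a held the CHR letters. Over windows from 250 bases before to 50 after the start, 36 of the 43 genes had a match in the RefSeq table. The E2F letters were in 10 of 25 replication promoters (40%) and 0 of 11 mitosis promoters, against 4.08% of 8753 promoters of all genes tested. The CHR letters were in 3 of 25 replication promoters (12%) and 7 of 11 mitosis promoters (63.6%), against 11.8% of all. CCAAT was in 17 of 25 replication promoters (68%) and 9 of 11 mitosis promoters (81.8%), against 38.8% of all. A match describes letters only.

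The first comparison asks how the mRNA of these genes was divided between polysomes and the total pool of the same macrophages. Most of the genes were under-represented on polysomes, in both branches, and 1 licensing gene, Cdt1, was over-represented. Of the 38 genes, 27 were lower in polysome than in total mRNA, 1 was higher and 10 did not pass (edgeR quasi-likelihood test, adjusted p below 0.05 over 12109 genes). Over all genes tested, 34% were lower and 22.6% were higher. The median log2 fold was −1.10 for the 38 genes and −0.34 for all genes. Of the 27 replication genes, 20 were lower and 1 was higher (median −1.21), and 7 of the 11 mitosis genes were lower (median −0.72). Without small replicate 7, 26 were lower and 1 higher, with medians of −1.19 for replication and −0.59 for mitosis genes, against 31.5% lower and a median of −0.25 for all genes.

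**Figure D1:**
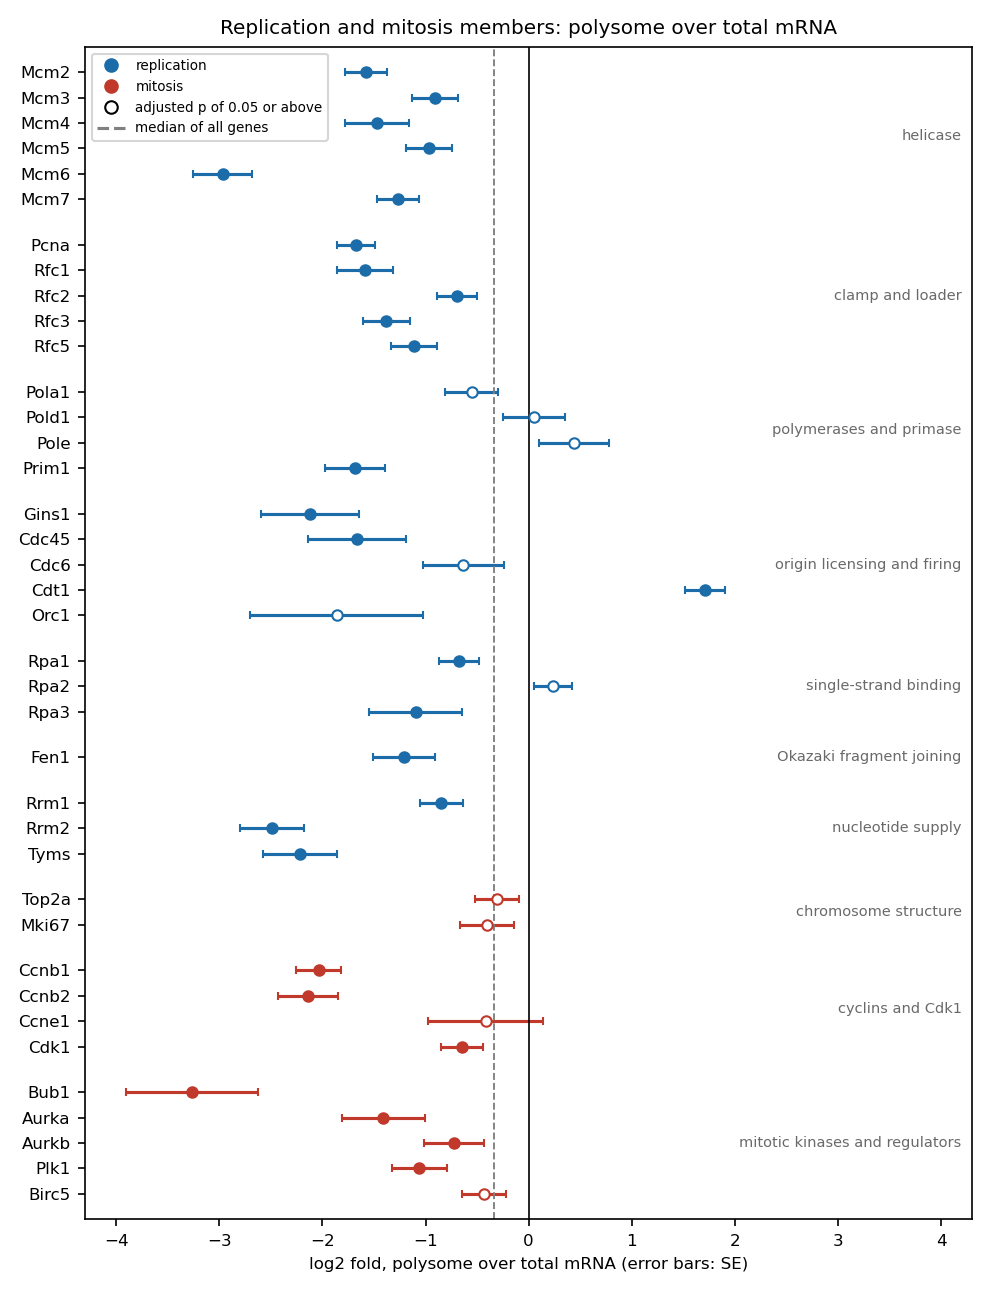
Log2 fold of polysome over total mRNA (horizontal axis, error bars are SE) for the 38 genes, grouped by role, with filled points past the adjusted threshold and a dashed line at the median of all genes. The 6 helicase genes and the 5 clamp and loader genes all lie left of the dashed line, and Cdt1 is the only filled point right of 0.

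Every subunit gene of the MCM helicase, which unwinds DNA at the fork, was lower on polysomes. Mcm6 had 4.52 CPM as its lowest, 14.2 as its median and 62.3 as its highest value in polysome libraries, against 73.8, 127 and 195 CPM in total mRNA (n = 13 each). No polysome library reached the lowest total mRNA library, and the log2 fold was −2.97 ± 0.29 (SE, adjusted p = 6.94e-09). Such a gap between both sets of libraries was seen for 2 of the 38 genes, the other being Rrm2, against 2.73% of all genes. Mcm2 had 12.7, 24.3 and 67.6 CPM in polysome libraries, against 44.7, 73.7 and 218 CPM in total mRNA. It was lower in 13 of 13 tumours although the 2 sets overlapped, with a fold of −1.58 ± 0.20 (adjusted p = 4.24e-07). Mcm7, with 19.5, 37.0 and 60.1 CPM in polysome and 45.6, 85.1 and 149 CPM in total mRNA, was also lower in each tumour (−1.26 ± 0.20, adjusted p = 1.05e-05). Mcm4 (−1.47), Mcm5 (−0.97) and Mcm3 (−0.91) completed the ring. Mcm4 was lower in 11 tumours, and Mcm3 and Mcm5 in 13.

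The sliding clamp and its loader followed. Pcna, which encodes the clamp, had 25.7, 46.5 and 69.9 CPM as lowest, median and highest polysome values, against 68.2, 174 and 281 CPM in total mRNA. Its highest polysome value lay just above its lowest total value, each tumour was lower on polysomes, and the fold was −1.67 ± 0.18 (adjusted p = 3.1e-08). Rfc1, the large subunit of the loader, had 4.60, 12.2 and 40.1 CPM in polysome and 19.4, 30.8 and 43.3 CPM in total mRNA, a fold of −1.59 ± 0.27 with 12 of 13 tumours lower (adjusted p = 2.33e-05). Rfc3, a small subunit, had 3.38, 13.6 and 19.9 CPM in polysome and 15.7, 28.6 and 48.8 CPM in total mRNA (−1.38 ± 0.23, adjusted p = 1.37e-05). Rfc5 (−1.11, adjusted p = 0.000161) and Rfc2 (−0.70, adjusted p = 0.00349) were lower by less. The row that joins Rfc4 with the initiation factor gene Eif4a2 had −1.92, and which gene carried it cannot be told. Pcna, Tyms, Ccnb1 and Ccnb2 have annotated pseudogenes that carry their names, so their reads could be shared with near-identical copies. Copies annotated under other names were not searched for any of the genes.

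The genes of the catalytic polymerases did not pass, while those of the helicase did, and this contrast itself was not tested. Prim1, the primase subunit that lays down RNA primers, was lower (1.62, 5.73 and 9.58 CPM in polysome, against 9.46, 16.4 and 30.2 CPM in total mRNA, −1.68 ± 0.29, adjusted p = 2.63e-05). Pola1, the catalytic subunit of polymerase alpha, had −0.55 ± 0.26 (adjusted p = 0.0687). It passed without small replicate 6 (adjusted p = 0.038) or large replicate 4 (0.0493). Pold1, the catalytic subunit of polymerase delta, had a fold of 0.053 ± 0.30 (adjusted p = 0.893) and Pole, that of polymerase epsilon, 0.44 ± 0.34 (adjusted p = 0.275). Pold1 was lower in 6 of 13 tumours and Pole in 5. The 2 batches differed for Pold1, with −0.86 in batch 2 alone (adjusted p = 0.16) and 1.02 in batch 1 alone (adjusted p = 0.0415).

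Origin licensing and firing genes were split. Cdt1, which brings MCM to origins and whose protein is destroyed once S phase begins, was the 1 gene that was higher on polysomes. It had 50.1, 88.3 and 242 CPM in polysome libraries, against 14.0, 26.9 and 49.8 CPM in total mRNA. Every polysome library lay above every total library, although the nearest libraries of the 2 sets were almost level, and the fold was 1.71 ± 0.19 (adjusted p = 6.72e-08). The share of all genes with such a gap in this direction was not counted. Gins1, a subunit of the GINS complex, was lower (−2.12 ± 0.48, adjusted p = 0.000502) in 13 tumours, and Cdc45, which binds MCM with GINS, in 12 (−1.67 ± 0.47, adjusted p = 0.00421). Cdc45 had −0.69 in batch 2 alone, which did not pass (adjusted p = 0.285), and −2.90 in batch 1 alone. Gins1 and Cdc45 rest on few polysome reads, with 0 counts for Gins1 in 2 polysome libraries and 1 count as the lowest for Cdc45. Cdc6 had −0.63 (adjusted p = 0.176, and 0.022 without large replicate 3). Orc1, the large subunit of the origin recognition complex, had −1.86 ± 0.84 (adjusted p = 0.0608) with 0 counts in 3 polysome libraries, and passed without large replicate 2 (0.0166) or small replicate 3 (0.0442), with DESeq2 (0.00511) and with voom (0.042). The row that joins Gins2 with Gse1 had 0.51 (adjusted p = 0.0318).

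Among the subunits of RPA, which covers single-stranded DNA, Rpa1 was lower (−0.67 ± 0.19, adjusted p = 0.00422) and Rpa2 had 0.24 ± 0.19 (adjusted p = 0.281). Rpa3 passed narrowly (−1.10 ± 0.45, adjusted p = 0.0421). It did not pass without large replicate 2 (0.0956), 4 (0.19) or 5 (0.148), or without small replicate 2 (0.0704), 4 (0.0777), 5 (0.0606), 6 (0.062) or 8 (0.0785). Nor did it pass with RLE (0.057) or upper-quartile scaling (0.0529), or in batch 2 alone (0.865). Fen1, the flap endonuclease that trims Okazaki fragments, was lower (−1.21 ± 0.30, adjusted p = 0.00128), but not in batch 2 alone (0.058, adjusted p = 0.917). The row that joins Lig1, the ligase of the same step, with 6330408A02Rik had 0.013 (adjusted p = 0.958).

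The 3 genes of nucleotide supply were all lower. Rrm2, the regulated subunit of ribonucleotide reductase, had 0.607, 10.7 and 20.02 CPM in polysome libraries, against 23.6, 33.3 and 90.1 CPM in total mRNA. The sets did not overlap, and the fold was −2.49 ± 0.31 (adjusted p = 2.72e-07). Tyms, thymidylate synthase, had 0, 8.72 and 39.9 CPM in polysome and 18.6, 33.4 and 104 CPM in total mRNA (−2.22 ± 0.36, adjusted p = 1.1e-05), with large replicate 5 the 1 tumour that was not lower. Rrm1, the large reductase subunit, was lower by less (−0.85 ± 0.21, adjusted p = 0.00132).

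Of the mitosis genes, the B-type cyclins that activate CDK1 had the firmest differences. Ccnb1 had 3.17, 11.6 and 32.5 CPM in polysome libraries, against 23.7, 39.4 and 144 CPM in total mRNA. It was lower in 13 of 13 tumours, with a fold of −2.04 ± 0.22 (adjusted p = 3.35e-08). Ccnb2 had 0.812, 13.7 and 26.8 CPM in polysome and 19.98, 46.1 and 94.4 CPM in total mRNA, again lower in each tumour (−2.14 ± 0.29, adjusted p = 1.17e-06). Cdk1 itself was lower by −0.65 ± 0.20 (adjusted p = 0.00854). Ccne1, a cyclin of the G1 to S step, had −0.42 ± 0.56 (adjusted p = 0.539), and the row that joins Ccna2 with Exosc9 had −0.39 (adjusted p = 0.0767). Over the 38 genes, 12 were lower in all 13 tumours, against 11% of all genes.

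The kinases of mitosis were mostly lower too. Bub1, a kinase of the spindle checkpoint, had the lowest fold of all 38, −3.27 ± 0.64 (adjusted p = 0.000115), on 0, 0.738 and 13.5 CPM in polysome and 3.24, 8.87 and 19.5 CPM in total mRNA. Its polysome counts were 0 in 3 libraries, and 2 of 13 tumours were not lower. Bub1 had −1.64 in batch 2 alone, which did not pass (adjusted p = 0.175), and −4.79 in batch 1 alone. Aurka (−1.41 ± 0.40, adjusted p = 0.00453) and Plk1 (−1.06 ± 0.26, adjusted p = 0.00143), kinases of the spindle poles and of mitotic entry, were lower. Aurka had −0.32 in batch 2 alone, which did not pass (adjusted p = 0.525), and −2.28 in batch 1 alone, and with no tumour block in the fit it did not pass (adjusted p = 0.062). Plk1 had −1.58 in batch 2 alone and −0.51 in batch 1 alone, where it did not pass (adjusted p = 0.231). Aurkb, the kinase of the chromosomal passenger complex, had −0.72 ± 0.29 (adjusted p = 0.0384). That call was lost without large replicate 1 (0.0886), 4 (0.128) or 5 (0.111), without small replicate 1 (0.0614), 6 (0.0503) or 7 (0.1), and with RLE scaling (0.0606), and Aurkb passed neither in batch 2 alone (0.281) nor in batch 1 alone (0.119). Birc5, survivin of the same complex, had −0.43 ± 0.21 (adjusted p = 0.0861, and 0.0224 without large replicate 5). Birc5 had −0.051 in batch 2 alone, which did not pass (adjusted p = 0.917), and −0.91 in batch 1 alone, which did (adjusted p = 0.0073). The row that joins Cdc20, an activator of the anaphase-promoting complex, with Elovl1 had −1.20 (adjusted p = 1.23e-05).

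Top2a and Mki67, both used as marks of proliferation, did not pass, whereas Pcna and Mcm2 (above) were lower. Top2a, the topoisomerase that untangles chromosomes, had 19.9, 37.1 and 136 CPM in polysome and 10.3, 44.7 and 97.9 CPM in total mRNA, a fold of −0.31 ± 0.21 (adjusted p = 0.227) with 9 of 13 tumours lower. Mki67, which coats mitotic chromosomes, had 10.5, 31.5 and 91.0 CPM in polysome and 19.02, 43.1 and 95.1 CPM in total mRNA, with a fold of −0.41 ± 0.26 (adjusted p = 0.188). Both folds lie near the −0.34 of all genes.

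**Figure D2:**
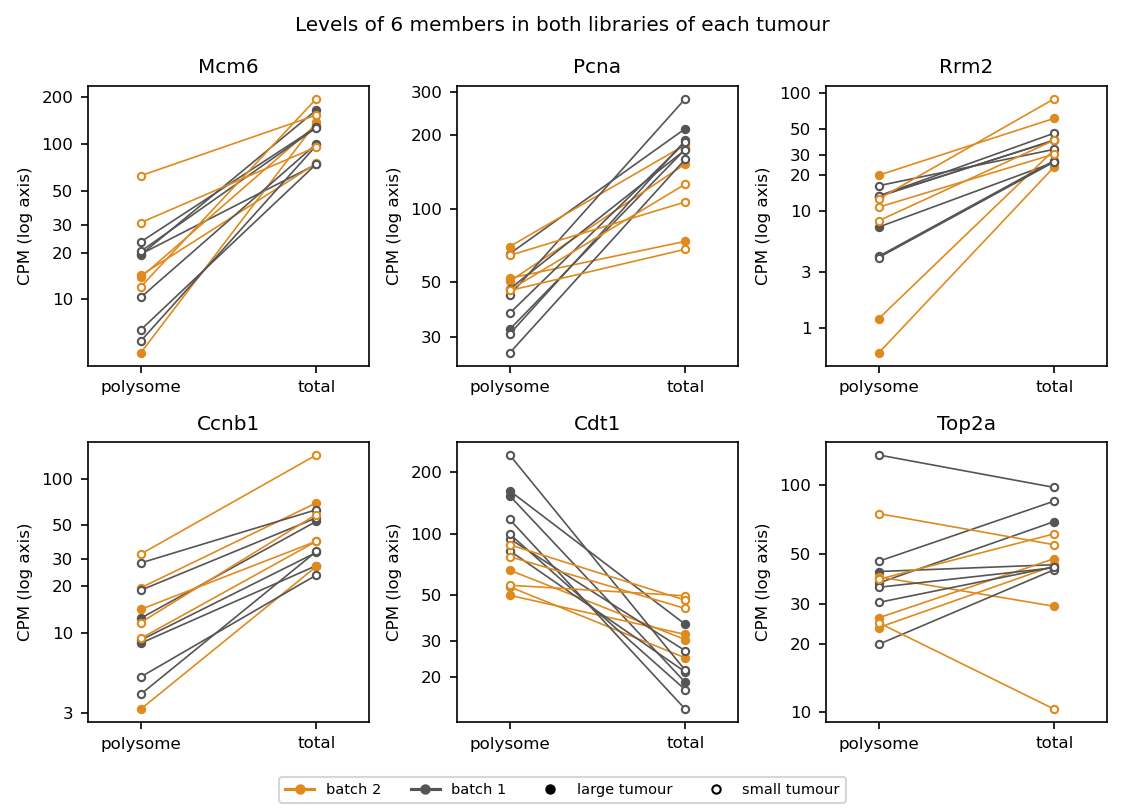
CPM (log axis) of 6 genes in the polysome and total libraries of each of the 13 tumours, joined by a line per tumour and coloured by batch, with filled points for large tumours. Lines run upward to total mRNA in each tumour for Mcm6, Pcna, Rrm2 and Ccnb1, downward for Cdt1, and both ways for Top2a.

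The median difference of polysome and total log2 CPM over the replication genes was −1.88 to −0.72 in the 13 tumours, and that over the mitosis genes −1.86 to 0.18. The replication median lay below the mitosis median in 9 of 13 tumours, and replication minus mitosis was −1.38 at its lowest, −0.08 at its median and 0.58 at its highest. It lay below the median of all genes in 13 tumours, and the mitosis median did so in 12, the exception being large replicate 3. In that tumour Ccne1 (5.29, on 8.28 CPM in polysome and 0.169 CPM in total mRNA), Aurkb (1.10), Cdk1 (0.59) and Top2a (0.43) were among the mitosis genes with positive differences. Summed over the 27 replication genes, levels were 561 to 1192 CPM in polysome and 971 to 2021 CPM in total mRNA. Summed over the 11 mitosis genes they were 96.6 to 581 CPM in polysome and 241 to 1049 CPM in total mRNA, with both highest values in small replicate 7. Without that tumour the highest mitosis sums were 374 CPM in polysome and 585 CPM in total mRNA.

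**Figure D3:**
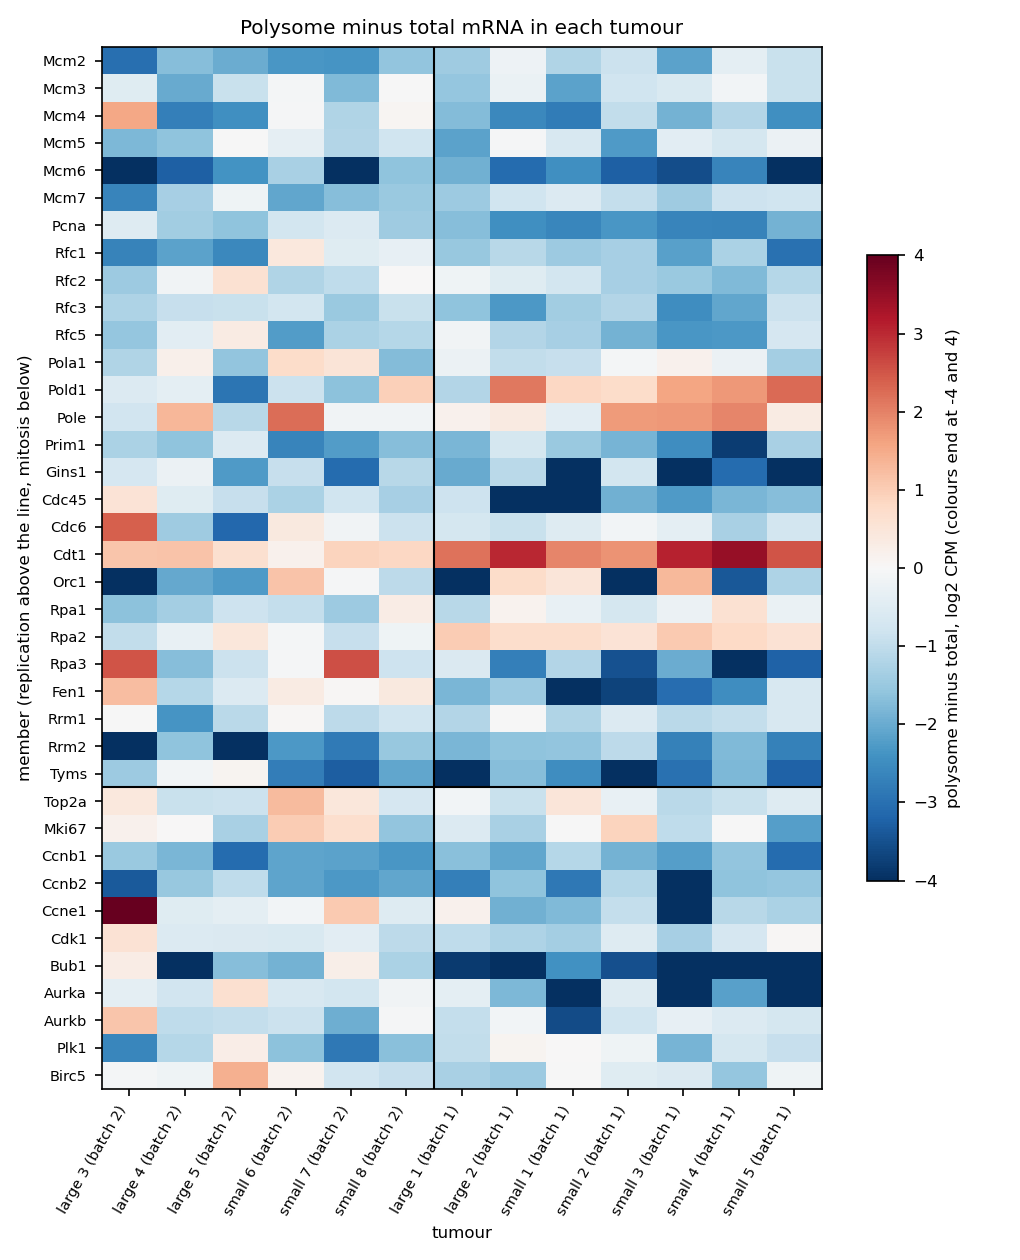
Polysome minus total log2 CPM of each gene (rows) in each tumour (columns, batch 2 left of the line and batch 1 right of it), with blue for lower and red for higher on polysomes. Mcm6, Rrm2, Ccnb1 and Ccnb2 are blue in each column and Cdt1 is red in each, while Pold1 and Rpa2 are red in most columns of batch 1 and mostly blue or pale in batch 2.

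The sequence around the start codon, where ribosomes begin, is shown for the genes with the lowest folds, for Cdt1 and for Pold1. Those with the lowest folds are the first 5. Each is 6 bases before and 4 after the start codon of the GENCODE M21 transcript (GRCm38), with the codon in capitals. The coordinates here are those of the whole transcript, not of the bases shown.
Bub1 (chr2:127801122-127831865, minus strand): ctcgtcATGgaca
Mcm6 (chr1:128331590-128359664, minus strand): gccgccATGgacc
Rrm2 (chr12:24708241-24714146, plus strand): ttcgccATGctct
Tyms (chr5:30058827-30073617, minus strand): tccgttATGctgg
Ccnb2 (chr9:70407692-70421547, minus strand): gccctcATGgcgc
Cdt1 (chr8:122568015-122573128, plus strand): ggcgccATGgcgc
Pold1 (chr7:44532746-44548847, minus strand): gaggcgATGgatt

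Bub1, with the lowest fold, and Cdt1, with the highest, both have a purine at position −3, counted back from the A of the codon, and a G just after it. A purine at −3 was found in 35 of the 38 genes (92.1%), against 86.9% of 10902 genes with a context, and a G after the codon in 23 (60.5%), against 52.6%. The 5′ untranslated region held an ATG in 13 genes (34.2%), against 52.5% of all. Its median length was 106.5 bases in the 38 genes, against 179 in 11089 genes tested. These shares of letters, and the part of length in them, were not tested.

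Since mRNA with at least 3 ribosomes was collected, coding length was set beside the fold. Across the 38 genes the Spearman correlation of coding length with the polysome fold was 0.14, and across 11089 genes it was 0.094. The 12 genes with more than 2400 coding bases, with Mcm2, Mcm3, Mcm4, Mcm6, Pola1, Pold1 and Pole among them, had a median fold of −1.19 and 6 were lower, against a median of 0.064 and 21.8% lower for all genes of that length. The 11 genes of 600 to 1200 coding bases had a median of −1.21 and 10 were lower, against −0.49 and 38% for all of that length. The points share the same 26 libraries, and these values are a description.

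Both batches showed lower polysome values for these genes, in batch 2 with fewer calls. In batch 2 alone, 16 of the 38 genes were lower and 1 was higher, against 15.9% of all genes lower, and the median fold was −0.88. In batch 1 alone, 25 were lower and 3 higher, against 27.9% of all genes lower, and the median fold was −1.03. The 3 higher in batch 1 were Cdt1, Pold1 and Rpa2. Further genes that were lower over both batches did not pass in batch 2 alone, namely Mcm3 (adjusted p = 0.074), Mcm4 (0.238), Rfc2 (0.244), Rrm1 (0.0764) and Cdk1 (0.305), and Rpa1 did not pass in batch 1 alone (0.38). The difference of the folds, batch 2 minus batch 1, passed for 7 of the 38 genes (18.4%), near the 17.4% of all genes. The median of this difference over all genes was 0.26 with TMM, 0.15 with RLE and 0.28 with upper-quartile scaling, so each value below is also given less 0.26.

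Pold1, Cdt1, Rpa2 and Mcm2 were lower on polysomes in batch 2 relative to batch 1. Cdt1 had 50.1, 61.2 and 88.3 CPM in polysome and 24.8, 37.7 and 49.8 CPM in total mRNA of batch 2 (n = 6). In batch 1 it had 82.5, 117 and 242 CPM in polysome and 14.0, 21.2 and 36.1 CPM in total mRNA (n = 7). It was higher on polysomes in both, by 0.82 in batch 2 and 2.64 in batch 1, a difference of −1.81 ± 0.38 (adjusted p = 0.00164; −2.07 less the median). Pold1 had 2.70, 21.5 and 51.6 CPM in polysome and 20.4, 32.4 and 59.5 CPM in total mRNA of batch 2, against 10.3, 45.9 and 68.3 CPM in polysome and 8.45, 17.3 and 25.9 CPM in total mRNA of batch 1. The fold was −0.86 in batch 2 and 1.02 in batch 1, a difference of −1.88 ± 0.61 (adjusted p = 0.0318; −2.14 less the median). The call for Pold1 was lost without small replicate 3, 4, 5, 6 or 7 or large replicate 2 (adjusted p = 0.0536 to 0.126). Rpa2 (−1.13, or −1.38 less the median, adjusted p = 0.0361) and Mcm2 (−1.17, or −1.43, adjusted p = 0.0415) differed by less. Neither passed without small replicate 4, 6 or 7 or large replicate 2 or 3 (adjusted p = 0.0553 to 0.135). Rpa2 also did not pass without small replicate 3 (0.0667) or large replicate 1 (0.0742), nor did Mcm2 without small replicate 2 (0.0696) or 5 (0.0577) or without the tumour block (0.0572). Mcm2 was called lower on polysomes in each batch.

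Fen1, Pcna and Rpa3 went the other way. Fen1 had 19.6, 44.4 and 63.1 CPM in polysome and 24.2, 32.6 and 90.8 CPM in total mRNA of batch 2, against 1.65, 12.2 and 43.6 CPM in polysome and 63.5, 68.3 and 95.3 CPM in total mRNA of batch 1. Its fold was 0.058 in batch 2 and −2.27 in batch 1, a difference of 2.55 ± 0.59 (adjusted p = 0.00402; 2.29 less the median). Its lower level on polysomes thus rests on batch 1. Pcna was lower on polysomes in both batches, by −1.01 in batch 2 and −2.19 in batch 1 (difference 1.28 ± 0.35, adjusted p = 0.0125; 1.02 less the median). Rpa3 had 0.19 in batch 2 and −2.15 in batch 1 (difference 2.60 ± 0.89, adjusted p = 0.0437; 2.34 less the median). It did not pass without small replicate 2, 3, 4, 5, 6 or 7 or large replicate 2 or 3 (adjusted p = 0.0571 to 0.135), with RLE scaling (0.0524) or with voom (0.0602), and was 1.95 without small replicate 7. The batch difference of Bub1 was the largest in size, 3.47 ± 1.25, and did not pass (adjusted p = 0.0545), though it did with DESeq2 (0.00475) and voom (0.0233). Without small replicate 7 the batch difference passed for 3 of the 38 genes, 1 lower and 2 higher in batch 2, against 12.2% of all genes either way. Only 1 was lower without large replicate 2, small replicate 4 or small replicate 6, and 2 were lower without large replicate 3 or small replicate 3 or 5. Without large replicate 1, 5 were higher. Calls over all genes also fell without small replicate 7, from 2107 to 1452. Shares of all genes for the other fits are not given here, so these counts are not a result about the 38 genes.

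**Figure D4:**
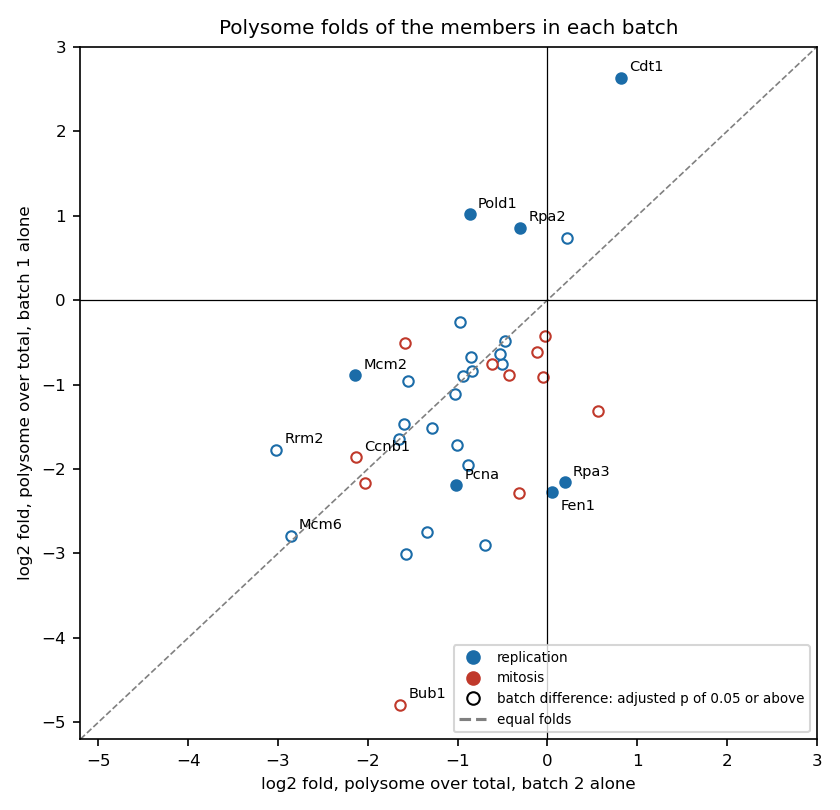
Log2 fold of polysome over total mRNA in batch 2 alone (horizontal) and batch 1 alone (vertical), with filled points where the difference between batches passed and a dashed line at equal folds. Mcm6 and Ccnb1 lie near the line, Fen1 and Rpa3 lie below it near 0 in batch 2, and Cdt1, Pold1 and Rpa2 lie above it.

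The second comparison asks whether these genes differed between macrophages of large and small tumours. In total mRNA 0 of the 38 genes passed, as did 0% of the 11671 genes tested, with 538 of those genes and 0 of the 38 below 0.05 unadjusted (edgeR). Voom called 0 of all genes with 656 below 0.05 unadjusted, and DESeq2 0 with 860. Fold values were negative for 28 of the 38 genes, 18 of 27 for replication (median −0.16) and 10 of 11 for mitosis (median −0.43), against a median of −0.03 over all genes. Without small replicate 7 the count was 22 and the medians were −0.03 for replication and −0.07 for mitosis genes. The share of all genes with a negative fold is not given here, so these counts are not a result about the 38 genes. In total mRNA Birc5 had its highest value, 404 CPM, and Plk1 its highest, 128 CPM, in small replicate 7. The genes with the lowest p were Tyms (−0.52 ± 0.31), Rpa2 (−0.37 ± 0.24), Mki67 (−0.58 ± 0.37) and Cdk1 (−0.45 ± 0.29), each with an adjusted p of 0.865.

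In polysome mRNA 0 of the 38 genes passed, as did 0% of the 10933 genes tested. Below 0.05 unadjusted were 1362 of all genes (12.5%) and 1 of the 38. Voom called 0 of all genes, with 1778 below 0.05 unadjusted, and DESeq2 called 147, none of them among the 38. That 1 gene was Mki67, at 16.8, 17.7, 35.0, 27.5 and 21.6 CPM in polysomes of large replicates 1 to 5, against 10.5, 40.7 and 91.0 CPM as lowest, median and highest of the 8 small tumours. All large tumours lay inside the range of the small ones, and the fold was −0.99 ± 0.44 (edgeR adjusted p = 0.367). Rfc5 had 19.5, 20.2, 25.4, 37.1 and 29.5 CPM in polysomes of large replicates 1 to 5, against 7.03, 14.7 and 40.1 CPM in small tumours (0.57 ± 0.35, adjusted p = 0.507). Rfc2 (0.48 ± 0.28, adjusted p = 0.485) and Rpa3 (1.08 ± 0.66, adjusted p = 0.51) had positive folds of which neither passed. The medians were −0.03 for replication and −0.27 for mitosis genes, against −0.01 for all genes. Without small replicate 7 they were −0.01 and −0.04, and Mki67 had −0.77.

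Polysome association, the polysome fold in large minus that in small tumours, passed for 0 of the 38 genes and for 0% of all 12109. Below 0.05 unadjusted were 1385 of all genes and 1 of the 38, Rfc5 (1.02 ± 0.45, edgeR adjusted p = 0.409). Voom called 0 of all genes with 1942 below 0.05 unadjusted, and DESeq2 called 129, with 0 of the 38 among them. Tyms had 1.38 ± 0.72 (adjusted p = 0.468), Rfc1 −0.97 ± 0.55 (0.506) and Rfc2 0.69 ± 0.39 (0.515). For Mcm6 the difference was −0.26 ± 0.55 and for Cdt1 0.18 ± 0.38, neither of which passed at this number of tumours. Both batches hold large and small tumours, and neither alone gave a call among the 38 genes in any of the size comparisons.

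**Figure D5:**
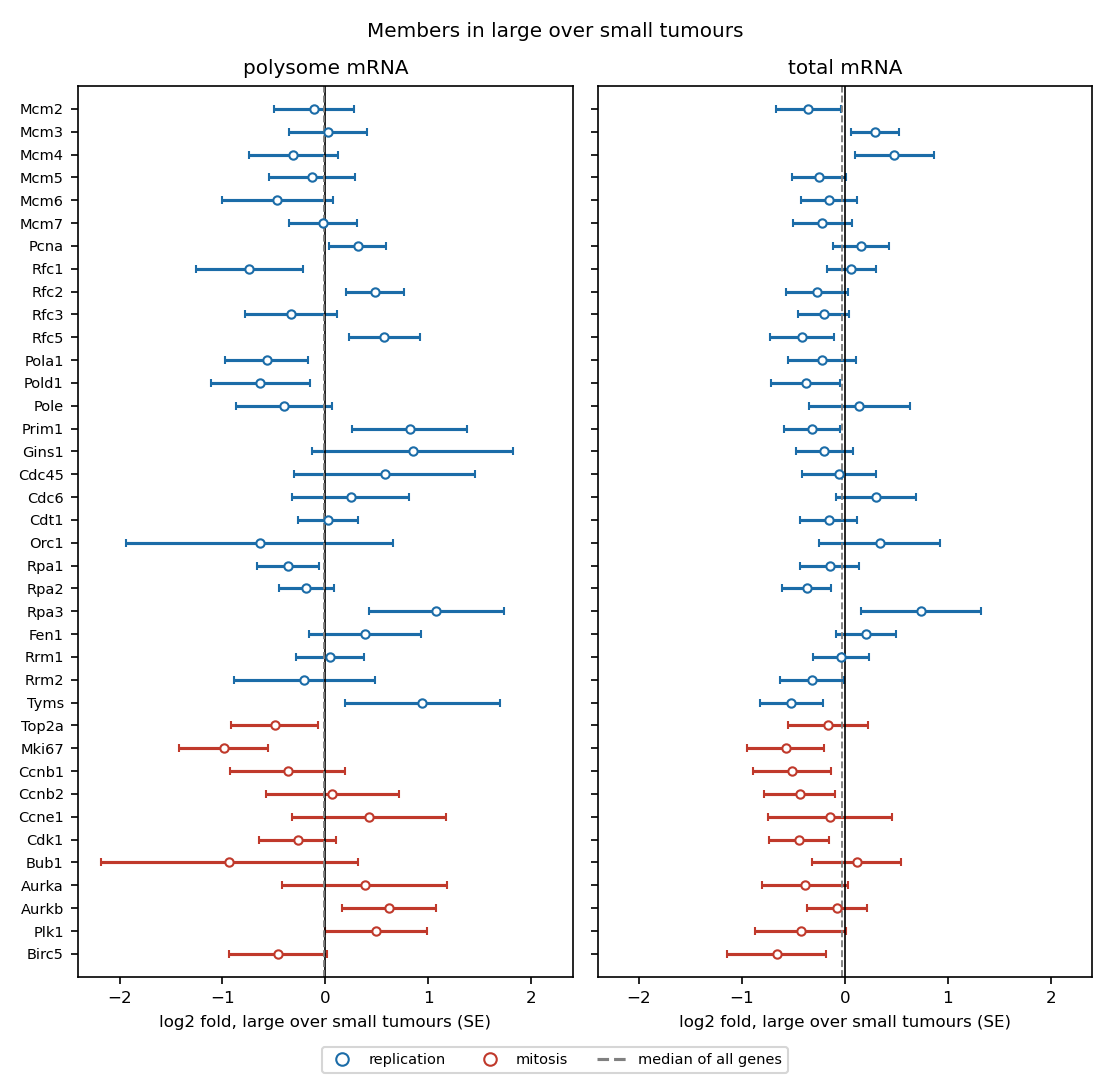
Log2 fold of large over small tumours (horizontal axes, error bars are SE) in polysome mRNA (left) and total mRNA (right), with a dashed line at the median of all genes. Points lie on both sides of 0, and all are open because no gene passed the adjusted threshold.

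Further genes of the same pathways were examined beside the 38. For reference, 34% of all genes tested were lower on polysomes and 22.6% higher, with a median fold of −0.34. Of 37 other replication genes with a row, 19 were lower on polysomes (51.4%) and 3 higher, with a median of −0.96. Gins4 of the GINS complex (−2.57), Tipin of the fork protection complex (−2.04) and the polymerase delta subunit gene Pold3 (−1.53) were lower in 13 of 13 tumours. Gins3 (0.91), Rnaseh2c of ribonuclease H2 (0.63) and the MCM-binding gene Mcmbp (0.53) were the 3 higher. Of 44 other mitosis genes, 27 were lower (61.4%) and 3 higher, with a median of −0.99. The condensin genes Smc4 (−2.55) and Smc2 (−1.79) and the kinesin gene Kif23 of cytokinesis (−3.23) were lower in each tumour. The anaphase-promoting complex genes Anapc1 (1.85) and Anapc11 (1.15) and the separase gene Espl1 (0.68) were higher. Of 28 genes of G1 and cell cycle control, 5 were lower (17.9%) and 12 higher, with a median of 0.31. Cdk2 (1.59), the D-type cyclin gene Ccnd2 (1.02) and Lin52 of the DREAM complex (1.39) were higher in each tumour, and Tfdp1, the partner of E2F factors (−1.29), Lin37 of the DREAM complex (−0.86) and the pocket protein gene Rbl1 (−1.06) were lower. No gene of the 3 lists passed in a size comparison.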

How the data were processed

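Sorted macrophages of 13 tumours gave 26 libraries. For each library the authors deposited raw counts by gene beside a column of log2 values. HISAT, HISAT2, limma and mm10 are named in the submitters' processing notes, without versions. How reads were counted, and with which strand setting, is not given in the sources used here. SmartSeq2 does not mark strand. Only counts were tested; the deposited log2 values were checked and were CPM rescaled per library.

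Genes were filtered with filterByExpr, TMM-scaled, and tested by quasi-likelihood with robust settings in edgeR 4.0.16 (R 4.3.3), with Benjamini-Hochberg adjustment over all genes and a threshold of 0.05. Polysome against total mRNA, its batch difference and its size difference came from 1 fit of 26 libraries with the tumour as a block. Size was fitted separately in polysome and in total mRNA, adjusting for batch. Both libraries of a tumour come from 1 sorted population, which gives the pairing. The deviations of both libraries correlated at a median of 0.249 in the same tumour, the lowest being 0.0372, and of −0.0167 in different ones. Levels are TMM-scaled CPM, and a tumour's difference is between log2 CPM values made with 1 prior count. Each tumour is a separate sample. In the fit with the tumour block, p-values rest on how the polysome minus total difference varies between tumours. In the separate size fits they rest on the spread of levels between tumours.

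Genes, lists and roles were chosen with earlier results of these data known. All 43 genes are accounted for. Lowest, median and highest levels are given for the 12 with the lowest p in polysome against total mRNA. The 4 with the lowest p in the batch and in each size comparison are named with their folds. So is any gene called against the common direction. Levels are given for some of these, and levels of a few others were added after their values were seen. Of the further lists, the 3 genes per direction with the lowest p and a mean of at least 10 CPM are named. Alternatives were RLE and upper-quartile scaling, a filter at a mean of 10 CPM, no filter, voom (limma 3.58.1), DESeq2 1.42.0, no block, no batch term, log2 weight, each batch alone and each tumour left out. Fits were tested on simulated data. Coordinates and lengths are from GENCODE M21, which matched 11089 of 12109 genes tested.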

Additional observations from a re-analysis of the deposited data

Results flagged for a closer look

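In 84 groups of values, 9 held a sample far from the others, where chance flags about 1 in 20. The gap to the nearest sample, relative to the range of the group, exceeded the Dixon limit for 7 polysome minus total differences, which came from 5 tumours. Large replicate 3 had 1.54 for Mcm4, on 22.4 CPM in polysome and 7.66 CPM in total mRNA, where the other large tumours were below 0. Small replicate 2 had −2.28 for Mcm5, on 19.7 CPM in polysome and 95.7 CPM in total mRNA. Cdc45 was at −5.69 in small replicate 1, from 2 polysome counts, and at −6.75 in large replicate 2, from 1 polysome count. The ratios of polysome to total mRNA were 0.0157 (95% exact interval 0.00189 to 0.0572, counting error only) and 0.00549 (0.000139 to 0.0309). Tyms in small replicate 2 was at −9.09 with 0 polysome counts, a value set by the prior count, and was at least 65.1-fold lower on polysomes when 3 counts are taken as the limit. Ccne1 in small replicate 3 was at −7.58 with 0 polysome counts, at least 20.6-fold lower by the same limit. Ccnb2 in small replicate 3 was at −5.27, from 6 polysome counts.

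The summed polysome level of the replication genes was 1192 CPM in large replicate 2, and the summed total mRNA level of the mitosis genes was 1049 CPM in small replicate 7. The polysome fold differed between batch 2 and batch 1 for Mcm2 (−1.17), Pcna (1.28), Pold1 (−1.88), Cdt1 (−1.81), Rpa2 (−1.13), Rpa3 (2.60) and Fen1 (2.55), on the log2 scale.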

How the results depend on the processing

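The number of genes lower on polysomes was 23 to 28 under the scalings, filters, tools and block choices, 26 without the replicate block and 16 in batch 2 alone. The filter at a mean of 10 CPM left some genes of low level untested, Rpa3 among them. Fewer calls in that fit need not be lost calls. Over all genes, 4116 were lower in the main fit, 4327 with DESeq2, 4176 with voom and 3610 without the block. Of the 38 genes, the number higher was 3 in batch 1 alone and 1 under every other alternative. The batch difference called 5 genes as higher with DESeq2, and 5 higher and 2 lower with no filter. Over all genes it was called for 3155 with DESeq2, against 2107 of 12109 in the main fit. Leaving out 1 tumour gave 1 to 5 lower and 2 to 5 higher, and 26 to 28 lower against total mRNA. Shares of all genes are not given here for each of these fits. These counts are thus not a result about the 38 genes. No size comparison called any of the 38 genes under any alternative. Signs turned in batch 2 alone for Fen1 (0.058), Pold1 (−0.86), Rpa2 (−0.30), Rpa3 (0.19) and Ccne1 (0.57), and for Pold1 with 1 tumour left out (lowest −0.19, highest 0.32). They also turned for polysome association of Rfc1 in batch 1 alone (0.51) and for Rfc2 in polysomes by size in batch 2 alone (−0.32). The cause was not tested. Without the replicate block Aurka lost its call, and no other call against total mRNA changed, while the batch difference called 3 lower and 3 higher. Batch difference calls over all genes fell too without the block, from 2107 to 1610. Polysome libraries were shallower, and 6 of the 38 genes had 0 counts in at least 1 of them.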
